A study of Macaca mulatta with 2 samples.

Results

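The phospholipase A2 genes were examined in RNA-seq libraries of macaque optic nerve. They were chosen by name, and 9 of the 10 named genes were among the 16684 genes of the table. *PLA2G4C* was not analysed here. The libraries, called Rep1 and Rep2, were both made from total RNA of wild-type, untreated *Macaca mulatta* optic nerve, so the study had 1 condition with 2 libraries and no groups to compare. The study's methods name a single 12-year-old male whose eyes were collected after death, whereas the series' design text speaks of 2 macaques, so the libraries are nerves of 1 animal or of 2. The nerves were discarded tissue from eyes taken for other studies, and the part of the nerve is not given in the sources used here.

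Phospholipase A2 enzymes cut the fatty acid from the middle position of a membrane phospholipid and leave a lysophospholipid behind. When that fatty acid is arachidonic acid, it feeds the lipoxygenases and cyclooxygenases, and thereby the lipoxins that the study is concerned with. The enzymes fall into cytosolic, calcium-independent, secreted, lysosomal and platelet-activating factor hydrolysing kinds. The listed genes held 7 enzymes (*PLA2G4A*, *PLA2G6*, *PLA2G2A*, *PLA2G5*, *PLA2G12A*, *PLA2G7* and *PLA2G15*), together with *PLA2R1*, which encodes a cell-surface receptor for secreted phospholipases, and *PLAA*, which encodes the phospholipase A2 activating protein. The last of these is a ubiquitin-binding partner of the p97 ATPase and not itself a lipase.

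The enzymes are unlike in their active sites, and these are shown because they divide the family by mechanism. Secreted phospholipases use a histidine followed by an aspartate. The stretches below are coding bases of Mmul_10, 5′ to 3′ on the strand of the gene, with the codons of that pair in capitals. They lie at chr1:204743131-204743160 for *PLA2G2A* (plus strand), chr1:204644371-204644400 for *PLA2G5* (minus strand) and chr5:108073491-108073520 for *PLA2G12A* (minus strand), each within 1 coding exon.
PLA2G2A: tgctgtgtcgttCATGACtgttgctacaaa
PLA2G5: tgctgttgggtgCATGACcactgctatggg
PLA2G12A: tgttgcaaccaaCACGACaggtgctatgag
The other enzymes use a serine, whose codon is in capitals in the next stretches. They lie on the plus strand at chr10:13407629-13407655 for *PLA2G6*, chr4:122699184-122699210 for *PLA2G7* and chr20:55480347-55480373 for *PLA2G15*. In *PLA2G4A* the stretch is interrupted by an intron and runs from 44157483 to 44163868 on chromosome 1 (plus strand).
PLA2G4A: attgctggtcttTCTggctccacctgg
PLA2G6: gtggcgggcaccAGCactggaggcatc
PLA2G7: gtaattggacatTCTtttggtggagca
PLA2G15: ctggttgcccacAGTatgggcaacatg
The longest coding sequences ran from 144 codons in *PLA2G2A*, 164 in *PLA2G5* and 189 in *PLA2G12A* to 777 in *PLA2G4A* and 806 in *PLA2G6*.

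All levels are in TPM (transcripts per 1000000), the authors' share of length-corrected reads, which allows levels to be compared between genes. Each library summed to 1000000 TPM, so the values do not give the number of reads. Dividing Rep1 by Rep2 gene by gene showed that a single read carried 17.2 times more TPM in Rep1, and gave the smallest read numbers that a value can rest on. Rep1 was therefore the shallower library. It listed 6425 genes at 0 and Rep2 listed 2082. The libraries also stood apart in content. The summed level of 8 oligodendrocyte markers was 46086 TPM in Rep1 against 212682 TPM in Rep2, whereas that of 8 retina markers was 3325 TPM in Rep1 against 20.8 TPM in Rep2. The defining markers of oligodendrocytes and astrocytes were above 0 in both, with *MBP* at 43721 and 199595 TPM and *GFAP* at 658 and 4331 TPM. The part of depth and of retinal RNA in the differences given here was not tested. In bulk RNA, fewer cells of a type and less RNA per cell cannot be told apart.

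Of the 9 phospholipase A2 genes, 9 were above 0 in Rep2 and 6 in Rep1. *PLAA*, *PLA2G15*, *PLA2G12A*, *PLA2G6* and *PLA2R1* were at 1 TPM or more in both libraries. *PLA2G2A* was measured in Rep2 alone, and *PLA2G4A*, *PLA2G5* and *PLA2G7* stayed below 1 TPM in both. Over all 14693 genes above 0 in at least 1 library, 61.2% reached 1 TPM in both, against 5 of the 9 members. The summed level of the 9 genes was 113 TPM in Rep1 against 149 TPM in Rep2, or 131 ± 26.0 TPM (SD, n = 2). For the 7 enzymes alone it was 19.4 TPM in Rep1 against 107 TPM in Rep2.

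**Figure D1:**
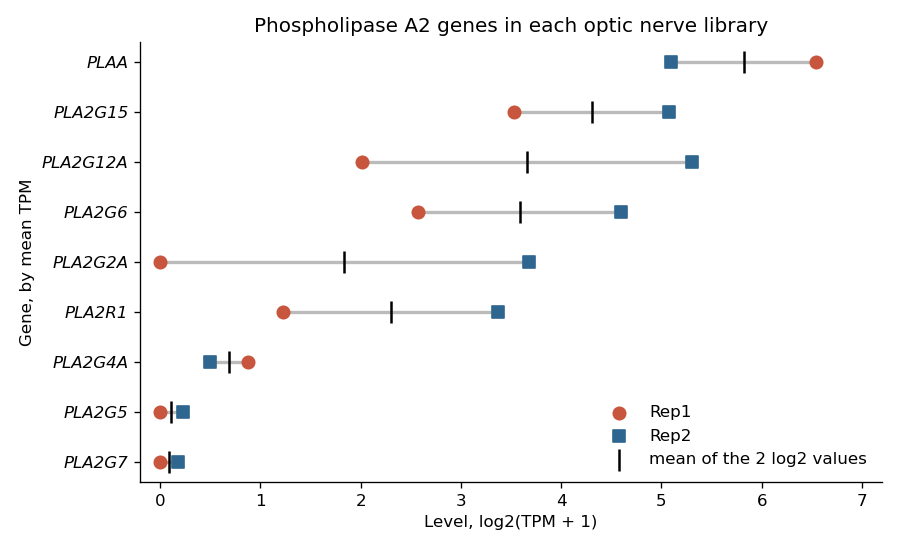
Level of each phospholipase A2 gene on the log2(TPM + 1) scale, with 1 circle for Rep1, 1 square for Rep2, a grey line between them and a bar at their mean. The genes are ordered by mean TPM. *PLAA* and *PLA2G4A* lie higher in Rep1, the other 7 genes lie higher in Rep2, and *PLA2G2A*, *PLA2G5* and *PLA2G7* lie at 0 in Rep1.

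Among the intracellular enzymes, the lysosomal *PLA2G15* had the highest mean level. This enzyme works at the acid pH of the lysosome and can pass the freed acyl group on to ceramide. It lies on chromosome 20 from 55461825 to 55487403 on the plus strand. *PLA2G15* was at 10.6 TPM in Rep1 against 32.7 TPM in Rep2, resting on at least 10 and 533 reads, with a mean of 21.6 ± 15.7 TPM (SD, n = 2). It was 3.10-fold higher in Rep2 as deposited, a direction that turned when Rep1 was scaled to the nerve markers of Rep2 (0.82, Rep1 minus Rep2, on the log2(TPM + 1) scale). Among genes above 0 in at least 1 library, it stood at percentile 65.2 in Rep1 and 70.9 in Rep2. Of these genes, 30.2% were at 0 in Rep1. Percentiles of detected genes in Rep1 thus stand higher than among the genes above 0 there.

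*PLA2G6*, the calcium-independent enzyme whose loss in humans causes infantile neuroaxonal dystrophy, lies on chromosome 10 from 13347765 to 13419740. It was at 4.95 TPM in Rep1 against 23.2 TPM in Rep2, resting on at least 3 and 241 reads, with a mean of 14.1 ± 12.9 TPM (SD, n = 2). Its percentile among genes above 0 in at least 1 library was 54.6 in Rep1, raised by the genes at 0 there, and 63.7 in Rep2. By mean level it stood at percentile 57.2 of these genes but at 46.5 once genes averaging under 1 TPM were left out. The difference of -2.02 (Rep1 minus Rep2, log2(TPM + 1) scale) became 0.24 under the scaling to nerve markers. A long non-coding RNA gene, *LOC114670356*, lies within it on the opposite strand, and the use of strand in counting is not given in the sources used here.

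*PLA2G4A* encodes the cytosolic enzyme that moves to membranes when calcium rises and prefers phospholipids carrying arachidonic acid. It lies on chromosome 1 from 44064988 to 44212576. Its level of 0.840 TPM in Rep1 rested on at least 2 reads and that of 0.416 TPM in Rep2 on at least 17. These are low levels, at percentile 11.0 in the deeper library. The 2.02-fold higher value in Rep1 is smaller on the log2(TPM + 1) scale, at 0.38. Of the 200 genes closest to it in Rep2, 76.5% were listed at 0 in Rep1.

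Of the secreted enzymes, *PLA2G12A* was the most abundant. It encodes an atypical group XII enzyme and lies on chromosome 5 from 108069530 to 108081207 on the minus strand. *PLA2G12A* was at 3.05 TPM in Rep1 against 38.4 TPM in Rep2, resting on at least 3 and 650 reads, with a mean of 20.7 ± 25.0 TPM (SD, n = 2). It was the highest of the 9 genes in Rep2, at percentile 74.0, and the fourth in Rep1, at percentile 47.9. The difference was 12.6-fold, or -3.28 on the log2(TPM + 1) scale (Rep1 minus Rep2). The 200 genes nearest to it in mean level had a median difference of -1.65, and 63.0% of them were at least 2-fold lower in Rep1.

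*PLA2G2A* encodes the group IIA enzyme, which attacks bacterial membranes and is released during inflammation. It lies on chromosome 1 from 204741586 to 204745798. The level of *PLA2G2A* was 11.8 TPM in Rep2, at percentile 50.2, and was listed at 0 in Rep1. Of the 200 genes closest to it in Rep2, 23.0% were also listed at 0 in Rep1. Its transcript was thus not detected in the shallower library, which does not show that it was missing from that nerve. *PLA2G5*, another secreted enzyme, lies on the same stretch of chromosome 1 from 204642267 to 204675305 on the minus strand. It had 0.168 TPM in Rep2 but 0 in Rep1, as did 78.0% of the 200 genes closest to it in Rep2.

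*PLA2G2A* and *PLA2G5* belong to a cluster of secreted phospholipase genes on chromosome 1, of which 6 were listed, within 271465 bases from 204542180 to 204813644. All 6 were listed at 0 in Rep1, beside 38.5% of all listed genes. In Rep2, *PLA2G2A* at 11.8 TPM was the highest of the cluster, followed by *PLA2G2C* at 2.79 TPM and *PLA2G2D* at 0.366 TPM. *PLA2G5* at 0.168 TPM and *PLA2G2F* at 0.0336 TPM were lower, and *PLA2G2E* was listed at 0. These genes are paralogs, and reads that fit more than 1 of them could have been assigned to any, so levels within the cluster are uncertain to that extent.

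*PLA2G7* encodes the platelet-activating factor acetylhydrolase of plasma, which is made largely by macrophages and also cuts oxidised phospholipids. It lies on chromosome 4 from 122671112 to 122707060. *PLA2G7* was listed at 0 in Rep1 and was at 0.133 TPM in Rep2, the lowest of the 9 genes there. Of the 8 macrophage and microglia markers, 1 was also listed at 0 in Rep1 (*TREM2*, at 15.0 TPM in Rep2), and *P2RY12* and *CX3CR1* were at 0.725 and 0.947 TPM there. Among the others, *CSF1R* was at 61.3 TPM in Rep1 against 62.2 TPM in Rep2 and *C1QB* at 30.3 and 173 TPM. Of the 8 markers 7 were lower in Rep1 by any amount and 1 was higher (*AIF1*, at 113 TPM in Rep1 against 64.5 TPM in Rep2). Over all 14693 genes above 0 in at least 1 library, 11146 were lower in Rep1 by any amount. The end of *PLA2G7* overlaps *SLC25A27* and *TDRD6* on the opposite strand, which were at 51.8 and 0.0506 TPM in Rep2.

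**Figure D2:**
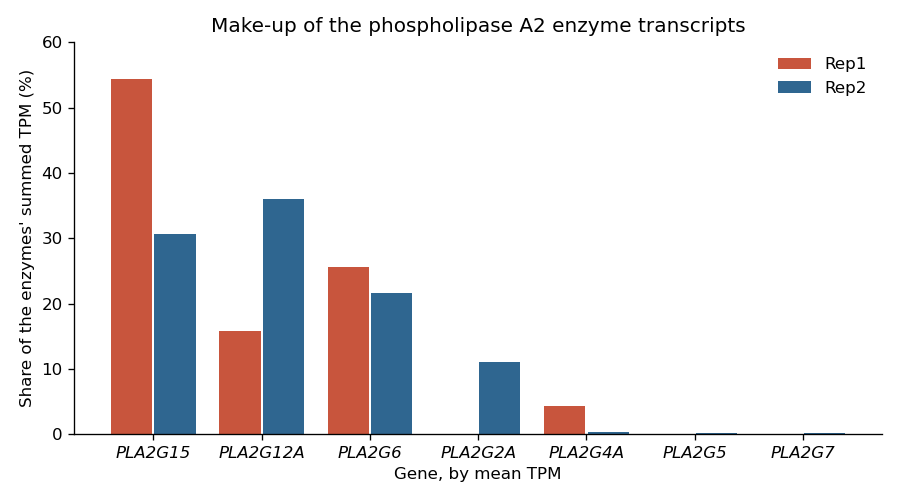
Share of each enzyme in the summed TPM of the 7 phospholipase A2 enzymes, in percent, with a bar for Rep1 and a bar for Rep2. *PLA2G15* takes the largest share in Rep1 (54.4%) and *PLA2G12A* in Rep2 (36.0%).

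The make-up of the enzyme transcripts can be compared between the libraries without the general shift in level. *PLA2G15*, *PLA2G6* and *PLA2G12A* held the 3 largest shares in both. In Rep1 they took 54.4%, 25.5% and 15.7% of the enzymes' summed TPM, and in Rep2 30.6%, 21.7% and 36.0%. The first place was thus held by *PLA2G15* in Rep1 and by *PLA2G12A* in Rep2, while the shares of *PLA2G6* were close. In Rep1 *PLA2G15*, *PLA2G6*, *PLA2G12A* and *PLA2G4A* rested on at least 10, 3, 3 and 2 reads. With so few reads the shares in Rep1 are uncertain. *PLA2G2A* took 11.0% in Rep2. *PLA2G4A*, the enzyme most tied to arachidonic acid, took 4.33% in Rep1 and 0.389% in Rep2.

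*PLA2R1*, the receptor for secreted phospholipases, lies on chromosome 12 from 46976633 to 47110807 on the minus strand. It was at 1.34 TPM in Rep1 against 9.37 TPM in Rep2, resting on at least 7 and 841 reads, with a mean of 5.35 ± 5.68 TPM (SD, n = 2). The difference was -2.15 on the log2(TPM + 1) scale, lower in Rep1.

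*PLAA* lies on chromosome 15 from 56814446 to 56854808 on the plus strand. It was the most abundant of the 9 genes by mean, at 62.6 ± 41.5 TPM (SD, n = 2), from 92.0 TPM in Rep1 against 33.3 TPM in Rep2. These rested on at least 68 and 423 reads. *PLAA* made up 81.6% of the members' summed TPM in Rep1 and 22.3% in Rep2. The difference was 2.76-fold, or 1.44 on the log2(TPM + 1) scale, higher in Rep1, whereas the 200 genes nearest in mean level had a median of -1.23 and 24.0% of them were at least 2-fold higher in Rep1. The start of *PLAA* overlaps *IFT74* on the opposite strand, which was at 66.6 TPM in Rep1 against 46.4 TPM in Rep2. The genes with the most similar pair of values were *MED6*, *PTPN9* and *PRPF4B*, at distances of 0.024, 0.041 and 0.060 on the log2(TPM + 1) scale. With 2 libraries this likeness is weak, since 121 genes lay within a distance of 0.5.

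By mean TPM the order was *PLAA*, *PLA2G15*, *PLA2G12A*, *PLA2G6*, *PLA2G2A*, *PLA2R1*, *PLA2G4A*, *PLA2G5* and *PLA2G7*. Differences between neighbours were taken within each library on the log2(TPM + 1) scale and set against their SD over the libraries. With 2 libraries no exact two-sided test can give a p below 0.5, so the comparison is with the spread alone. Of the 8 neighbouring pairs, 2 differed in the same direction in both libraries by more than the SD. *PLA2G6* exceeded *PLA2G2A* by 1.75 ± 1.17 and *PLA2G4A* exceeded *PLA2G5* by 0.58 ± 0.43 (SD, n = 2), and in both pairs the lower gene was listed at 0 in Rep1. Neither pair kept this under each alternative. With a pseudocount of 0.1 *PLA2G4A* over *PLA2G5* alone was beyond the SD. With an SD taken from the 200 nearest genes neither was, at 0.94 and 0.90 times the SD, and *PLA2R1* over *PLA2G4A* was, at 1.03 times. *PLAA* and *PLA2G15* were nearly level in Rep2 and 3.01 apart in Rep1, a mean difference of 1.52 ± 2.11. *PLA2G15*, *PLA2G12A* and *PLA2G6* differed by less than the SD from neighbour to neighbour, and *PLA2G12A* was above *PLA2G15* in Rep2 and below it in Rep1. *PLA2G2A* and *PLA2R1* also changed places. Over all 36 pairs of the 9 genes, 28 had the same order in both libraries, 5 had opposite orders and 3 were tied at 0 in Rep1.

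**Figure D3:**
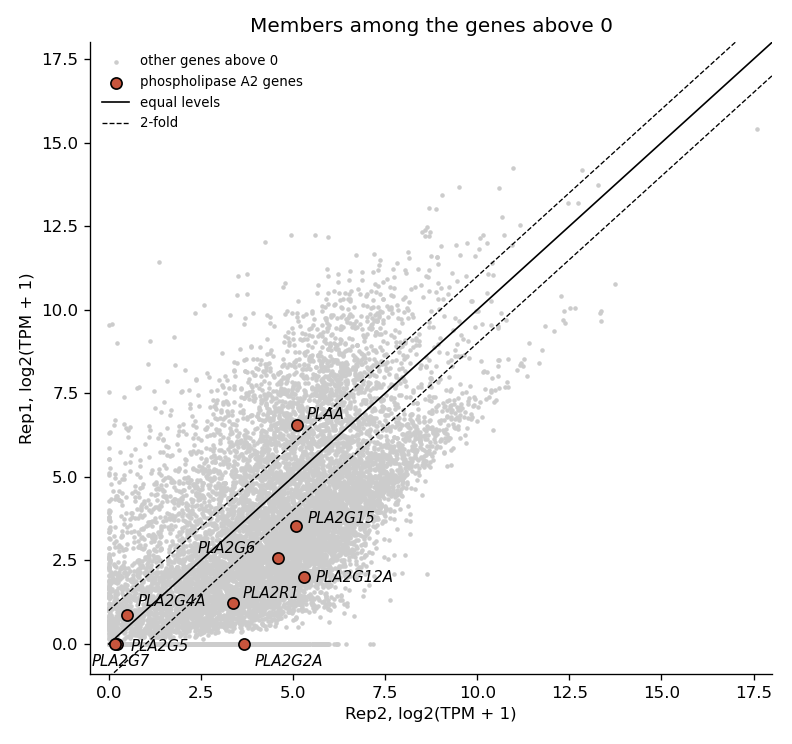
Level in Rep1 against level in Rep2 on the log2(TPM + 1) scale for the 14693 genes above 0 in at least 1 library (grey) and the 9 phospholipase A2 genes (red). The solid line marks equal levels and the dashed lines a 2-fold difference. *PLAA* lies above the upper dashed line, and *PLA2G15*, *PLA2G6*, *PLA2G12A*, *PLA2R1* and *PLA2G2A* lie below the lower one.

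On that scale 5 of the 9 genes were at least 2-fold lower in Rep1, among all genes 51.3%. Only 1 of the 9, *PLAA*, was at least 2-fold higher in Rep1, against 14.8% of all genes. The median difference of the 9 genes was -1.55 and that of all genes -1.07. At 0 in Rep1 stood 3 of the 9, against 30.2% of all genes. These counts were near the shares over all genes. With the libraries rescaled by their median ratio to reduce the general shift, *PLA2G12A*, *PLA2G2A* and *PLA2R1* were still at least 2-fold lower in Rep1, and *PLAA* was higher by 2.60. The differences of *PLA2G6* and *PLA2G15* then became -0.94 and -0.42. Of all genes, 33.8% were at least 2-fold lower in Rep1 after this rescaling and 23.7% at least 2-fold higher.

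The upstream sequences were examined because promoters rich in CpG dinucleotides are typical of widely expressed genes. In the 250 bases before the annotated start, the median over 16679 listed genes was 14 CpG, counted on 1 strand. *PLA2G12A* had 27 CpG there, more than 81.6% of the genes, *PLA2G15* had 23, *PLAA* 22, *PLA2G7* 18 and *PLA2G6* 17. *PLA2R1* had 10, *PLA2G4A* 9, *PLA2G2A* 6 and *PLA2G5* none. The 5 genes above the median spanned 0.133 to 38.4 TPM in Rep2 and the other 4 spanned 0.168 to 11.8 TPM, so the ranges overlapped, with *PLA2G7* as the low gene of the CpG-rich set. The 150 bases next to the start are shown for *PLA2G12A* and *PLA2G2A*, the secreted enzymes with the highest levels in Rep2 and with unlike CpG content, with each CpG in capitals. They lie at chr5:108081208-108081357 (minus strand) and chr1:204741436-204741585 (plus strand) of Mmul_10 and hold 23 and 3 CpG.
PLA2G12A: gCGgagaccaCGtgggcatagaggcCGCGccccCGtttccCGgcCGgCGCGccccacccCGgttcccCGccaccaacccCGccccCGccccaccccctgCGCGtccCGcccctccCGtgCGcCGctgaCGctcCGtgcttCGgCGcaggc
PLA2G2A: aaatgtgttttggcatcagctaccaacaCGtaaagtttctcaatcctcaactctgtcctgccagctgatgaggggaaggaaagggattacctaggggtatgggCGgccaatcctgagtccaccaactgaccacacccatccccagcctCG
These annotated starts come from gene models, and no data here show where transcription began in the nerve.

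The remaining phospholipase A2 genes were scarce. Of 15 further genes of the family, 11 were listed, 4 of these at 0 in both libraries. All 11 were at 0 in Rep1, beside 38.5% of all listed genes. The highest of the 11 was *PLA2G4B*, a cytosolic relative of *PLA2G4A*, at 3.13 TPM in Rep2. It was followed by *PLA2G2C* at 2.79 TPM and *PLA2G4D* at 0.399 TPM. At such low levels a 0 in Rep1 was common. It was found for 76.5% of the genes closest in Rep2 to *PLA2G4A* (0.416 TPM). Near *PLA2G2A* (11.8 TPM) the share was 23.0%. The part of depth in the zeros of the 11 genes was not tested. *PLA2G12B*, the paralog of *PLA2G12A*, was listed at 0 in both.

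The patatin-like phospholipases are relatives of *PLA2G6* that use the same kind of serine. All 8 were listed and 7 were above 0, of which 5 were at least 2-fold lower in Rep1 and none was at least 2-fold higher. Of all genes, 51.3% were lower by that much and 14.8% higher. *PNPLA6*, the neuropathy target esterase, was at 4.47 TPM in Rep1 against 38.8 TPM in Rep2. *PNPLA8*, another calcium-independent phospholipase A2, was at 9.34 and 22.4 TPM, and *PNPLA2*, the triglyceride lipase of fat droplets, at 2.04 and 29.7 TPM. In Rep2, *PNPLA8* and *PLA2G6* were thus at like levels, 22.4 and 23.2 TPM.

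Platelet-activating factor can also be cut inside cells. The subunit genes of the intracellular hydrolase were far above *PLA2G7*. *PAFAH1B1*, which is also the lissencephaly gene, was at 360 TPM in Rep1 against 72.1 TPM in Rep2, *PAFAH1B2* at 63.2 and 107 TPM and *PAFAH1B3* at 6.10 and 53.1 TPM. The separate enzyme *PAFAH2* had 3.61 TPM in Rep2 but 0 in Rep1, and the receptor *PTAFR* was at 1.41 and 1.81 TPM.

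What phospholipases release, acyl-CoA synthetases and lysophospholipid acyltransferases put back. Of 12 such genes, 6 were at least 2-fold lower and 4 at least 2-fold higher in Rep1, beside 51.3% and 14.8% of all genes. Their median difference was -0.85 and changed sign under other scalings. *LPCAT2*, which also makes platelet-activating factor, was at 442 TPM in Rep1 against 20.0 TPM in Rep2, resting on at least 9 and 7 reads. *ACSL3* was at 236 TPM in Rep1 against 103 TPM in Rep2. *ACSL4*, the synthetase that prefers arachidonic acid, was at 224 and 34.3 TPM, resting on at least 75 and 197 reads. In both libraries *ACSL4* was thus far above *PLA2G4A*. *MBOAT7*, which returns arachidonic acid to phosphatidylinositol, was at 28.1 TPM in Rep1 against 22.6 TPM in Rep2, a difference of 0.30 on the log2(TPM + 1) scale.

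The 6 genes reported for their action on the cytosolic enzyme all stood above *PLA2G4A* in both libraries. So did most genes, since *PLA2G4A* was at percentile 34.9 in Rep1 and 11.0 in Rep2. The smallest gap was that of *CERK* in Rep1, at 1.13 TPM on at least 1 read against 0.840 TPM. Of these 6, 4 were at least 2-fold lower in Rep1, beside 51.3% of all genes. *ANXA1*, whose protein was first described as a phospholipase inhibitor, was at 86.9 TPM in Rep1 against 841 TPM in Rep2. *S100A10*, a binding partner of the enzyme, was at 75.8 and 807 TPM. *MAPK3*, a kinase that phosphorylates it, was at 33.5 and 41.6 TPM.

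Of 15 genes for other phospholipases and lysophospholipases, 9 were at least 2-fold lower and 3 at least 2-fold higher in Rep1. Among all genes 51.3% were lower and 14.8% higher by that much. The median difference of the 15 genes was -2.31. *PLD3*, a lysosomal member of the phospholipase D family, was at 426 TPM in Rep1 against 495 TPM in Rep2. *PRDX6*, a peroxiredoxin that also has phospholipase A2 activity, was at 103 and 517 TPM, above each of the 9 phospholipase A2 genes in both libraries. *PLBD1* was at 23.7 and 319 TPM. *LCAT*, the closest relative of *PLA2G15*, was at 6.89 TPM in Rep1 against 71.1 TPM in Rep2.

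**Figure D4:**
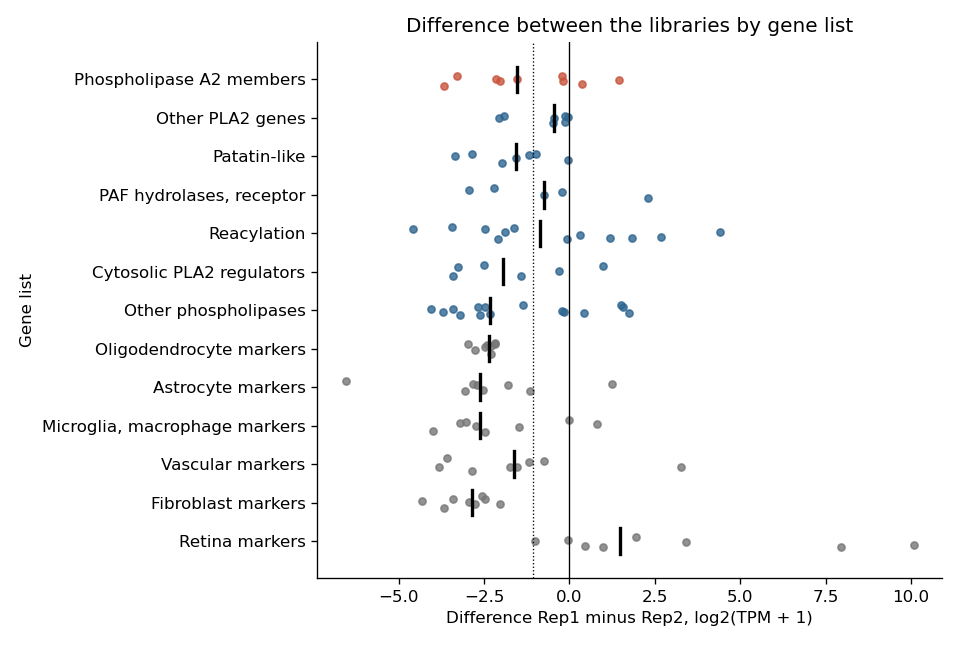
Difference between the libraries (Rep1 minus Rep2) on the log2(TPM + 1) scale, with 1 point for each gene above 0 in at least 1 library and a black bar at the median of each list. The solid line marks no difference and the dotted line the median of all 14693 genes, -1.07. The phospholipase A2 members have a median of -1.55, oligodendrocyte markers -2.36, fibroblast markers -2.84 and retina markers 1.47.

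Beside the members, the marker lists of the nerve differed as follows. All 8 oligodendrocyte markers, all 8 fibroblast markers, 7 of 8 astrocyte markers, 6 of 8 microglia and macrophage markers and 6 of 8 vascular markers were at least 2-fold lower in Rep1, beside 51.3% of all genes. At least 2-fold higher in Rep1 were 1 astrocyte marker (*SOX9*, at 50.2 and 20.4 TPM) and 1 vascular marker (*KCNJ8*, at 17.7 and 0.953 TPM). The medians in the order of the lists were -2.36, -2.84, -2.62, -2.61 and -1.63. Of the 8 retina markers, 4 were at least 2-fold higher in Rep1 and none was at least 2-fold lower, although on the log2(TPM + 1) scale *RPE65* came close (-0.99, from 6.05 and 13.1 TPM), and *SAG* was at 1.74 and 1.82 TPM. Of 8 named neutrophil and eosinophil markers 7 were listed, all at 0 in Rep1, beside 38.5% of all listed genes. They were low in Rep2 too, where 6 were above 0, the highest (*S100A9*) at 2.49 TPM, and the sum was 5.63 TPM. The part of these cell types in the levels of the phospholipase A2 genes was not tested.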

How the data were processed

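Per the labels and the study's methods, the authors used the SMARTer v4 kit for small RNA amounts, FastQC 0.11.9, Trim Galore 0.6.6, STAR 2.7.1a with Mmul_10 and featureCounts 1.5.3. The values the authors deposited are TPM of 16684 genes in 2 libraries of 1 condition. Gene lengths, use of strand and treatment of multimapped reads are not given in the sources used here. Nothing ties Rep1 and Rep2 to a sample title, so they served as replicates.

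Python 3.11.15, numpy 2.4.6, pandas 2.3.3 and matplotlib 3.10.9 were used. The log2(TPM + 1) scale makes differences of low genes look smaller. Genes above 0 in at least 1 library were kept. No p-value was computed. Smallest read numbers came from ratios of values written as whole-number fractions (tolerance 1e-12), which succeeded for 99.9% of 10168 genes. They are lower bounds, and amplified reads are not independent molecules. The depth itself is unknown, so no interval is given. Positions and sequences came from the RefSeq annotation of Mmul_10, and active sites from translating each enzyme's longest coding sequence. The methods were tested on simulated data.

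The members and lists were chosen with earlier results of these data known. Named were every member, the 3 genes of highest mean in each pathway list, near relatives and overlapping genes of members, and the 3 genes nearest to the most abundant member. *CSF1R*, *C1QB*, *AIF1*, *TREM2*, *P2RY12*, *CX3CR1*, *SOX9*, *KCNJ8*, *RPE65*, *SAG*, *MBOAT7*, *PAFAH2* and *PTAFR* were chosen after their values were seen. Of the genes acting on the cytosolic enzyme, 1 is not reported here and was left out of the list, its median and the plot. The alternatives tried are given in the closing section.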

Additional observations from a re-analysis of the deposited data

How the results depend on the processing

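No paired analysis was possible because there is a single condition. The summed mean level of the 9 genes was 131 TPM. It was 166 TPM without the 10 most abundant genes, since the remaining genes then share the same total, and it ran from 113 to 149 TPM between the single libraries. Of the 8 neighbouring pairs, 2 were beyond the spread, against 1 of these 2 with a pseudocount of 0.1. With the pooled single-library SD from the 200 nearest genes, which is smaller than the SD of a difference, 1 other pair was. The cause was not tested. Of the 9 genes, 5 were at least 2-fold lower in Rep1 as deposited and 3 under the median of ratios. Among all genes these shares were 51.3% and 33.8%. With Rep1 raised to match the nerve cell markers of Rep2, chosen after seeing the data, 2 genes were lower and 2 higher (*PLAA* and *PLA2G4A*). Among all genes 22.7% were then lower and 37.6% higher. The directions of *PLA2G6* and *PLA2G15* turned, to 0.24 and 0.82. Of the 52 pathway genes above 0, 28 were lower and 8 higher as deposited, and 13 were higher under the median of ratios. Under the marker scaling 13 were lower and 18 higher. Of all genes, 14.8% were higher as deposited and 23.7% under the median of ratios. By construction both scalings shift differences upwards. They turned the medians of the platelet-activating factor genes to 0.42 and 1.66 and of the reacylation genes to 0.10 and 1.28, in that order. The marker scaling also turned the cytosolic enzyme regulators to 0.10 and other phospholipases to 0.15. Over summed and single levels, percentiles, counts and list medians, 50 values stayed within the set limits, 18 moved and 6 list medians changed sign. For levels the limit was 1 SD of the 2 libraries. That SD exceeded the mean of *PLA2G12A*, *PLA2G2A*, *PLA2R1*, *PLA2G5* and *PLA2G7*, so even a fall to 0 would have counted as staying. The count of values that stayed is thus no measure of stability. Values of a single library and geometric means are not counted, since with 2 libraries they lie within 1 SD of the mean by construction. Values of *PLA2G4A*, *PLA2G12A* and *PLA2G6* in Rep1 may rest on as few as 2 or 3 reads.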
